A study of Mus musculus with 47 samples.

Results

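The genes described here are 10 feedback inhibitors and transcriptional targets of the extracellular signal-regulated kinase (ERK) pathway, taken by gene symbol from the 14221 genes of the bulk RNA-seq count table. They are the Sprouty genes Spry1, Spry2 and Spry4, the Spred genes Spred1 and Spred2, the epidermal growth factor (EGF) receptor inhibitor Errfi1, the ERK phosphatase genes Dusp4 and Dusp6, and the ETS family transcription factor genes Etv1 and Etv5. All 10 passed the filter on low counts, which removed 0 genes from the table.

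Growth factors such as FGF1 act through receptor tyrosine kinases that switch on RAS, which passes the signal through RAF and MEK to ERK. Active ERK induces its own inhibitors, so that transcripts of Sprouty, Spred and dual-specificity phosphatase genes are widely used as a readout of pathway activity. In the hypothalamus, FGF receptors are found on tanycytes, astrocytes and other glia as well as on neurons.

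The study measured hypothalamic RNA of male ob/ob mice, which lack leptin, after a single intracerebroventricular (icv) injection of FGF1 or vehicle, to follow the transcriptional response over time. Each of the 47 libraries came from 1 mouse, and all mice carry the label age of 11 weeks. FGF1 mice received 3 µg and were killed on Day 1 (n = 10), Day 5 (n = 9) or Day 42 (n = 5). Vehicle mice were pair-fed (PF) to FGF1 mice. PF, vehicle-treated mice carry the label non-diabetic on Day 1 (n = 4), Day 5 (n = 7) and Day 42 (n = 5), and 7 further vehicle mice of Day 5 carry the label diabetic. The source label of each library names FGF19 beside FGF1, while the treatment label names FGF1 or vehicle only and was followed. All groups share the ob/ob genotype, so no lean mouse enters any comparison. Each day had 1 preparation code in the deposited sample table, found on no other day, so day and preparation cannot be told apart, and levels of different days are set side by side below without a test.

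Depth differed between libraries. FGF1 mice of Day 1 had totals of 1243280 to 47082403 counts and their vehicle mice of 37281555 to 42887789. The lowest total belonged to replicate 1 of the FGF1 group, where Spry1 rested on 10 counts. Totals of Day 5 were 7695346 to 30009258 in FGF1 mice, with replicates 8 and 9 deepest at 30009258 and 27922117, 8005968 to 9864890 in vehicle mice labelled non-diabetic and 7579695 to 12451642 in those labelled diabetic. Those of Day 42 were 19416026 to 43934003 in FGF1 mice and 25020821 to 42977914 in vehicle mice. Levels are given in CPM, counts scaled to the library total, after normalisation by the trimmed mean of M values (TMM), and p-values measure the spread between mice. Genes passed when the Benjamini-Hochberg adjusted p of edgeR over all 14221 genes was under 0.05 and the absolute log2 fold change (log2 FC) was above 0.5.

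The labelled tissue was checked against marker lists. All 9 hypothalamic neuron markers were measured, and their summed level was 1210 to 1540 CPM in vehicle mice of Day 1, 527 to 774 CPM in those labelled non-diabetic on Day 5 and 819 to 1320 CPM in those of Day 42. Pmch, the most abundant of them over all libraries, held 68.5% of that sum in vehicle mice of Day 1 and 10.4% in those labelled non-diabetic on Day 5. Of the pituitary markers 2 of 4 were in the table, at 4.92 to 9.68 CPM summed in vehicle mice of Day 1, and of the choroid plexus markers 2 of 5, at 41.0 to 52.5 CPM. No measured marker of these lists was at 0 in all mice of a group.

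On Day 1, 8 of the 10 genes were higher in FGF1 mice than in vehicle mice past both thresholds and 0 were lower, against 11.5% of all genes tested that were higher (1631 of 14221) and 8.05% that were lower (1145). The genes that rose were Spry1, Spry2, Spry4, Spred1, Spred2, Errfi1, Dusp6 and Etv5, while Dusp4 and Etv1 did not pass. The median log2 FC of the 10 genes was 0.80, beside 0.01 over all genes tested. In 4 of the 10 genes every FGF1 mouse lay above every vehicle mouse, which held for 7.56% of all genes. These are bulk samples, in which fewer cells of a type and less RNA per cell cannot be told apart.

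**Figure D1:**
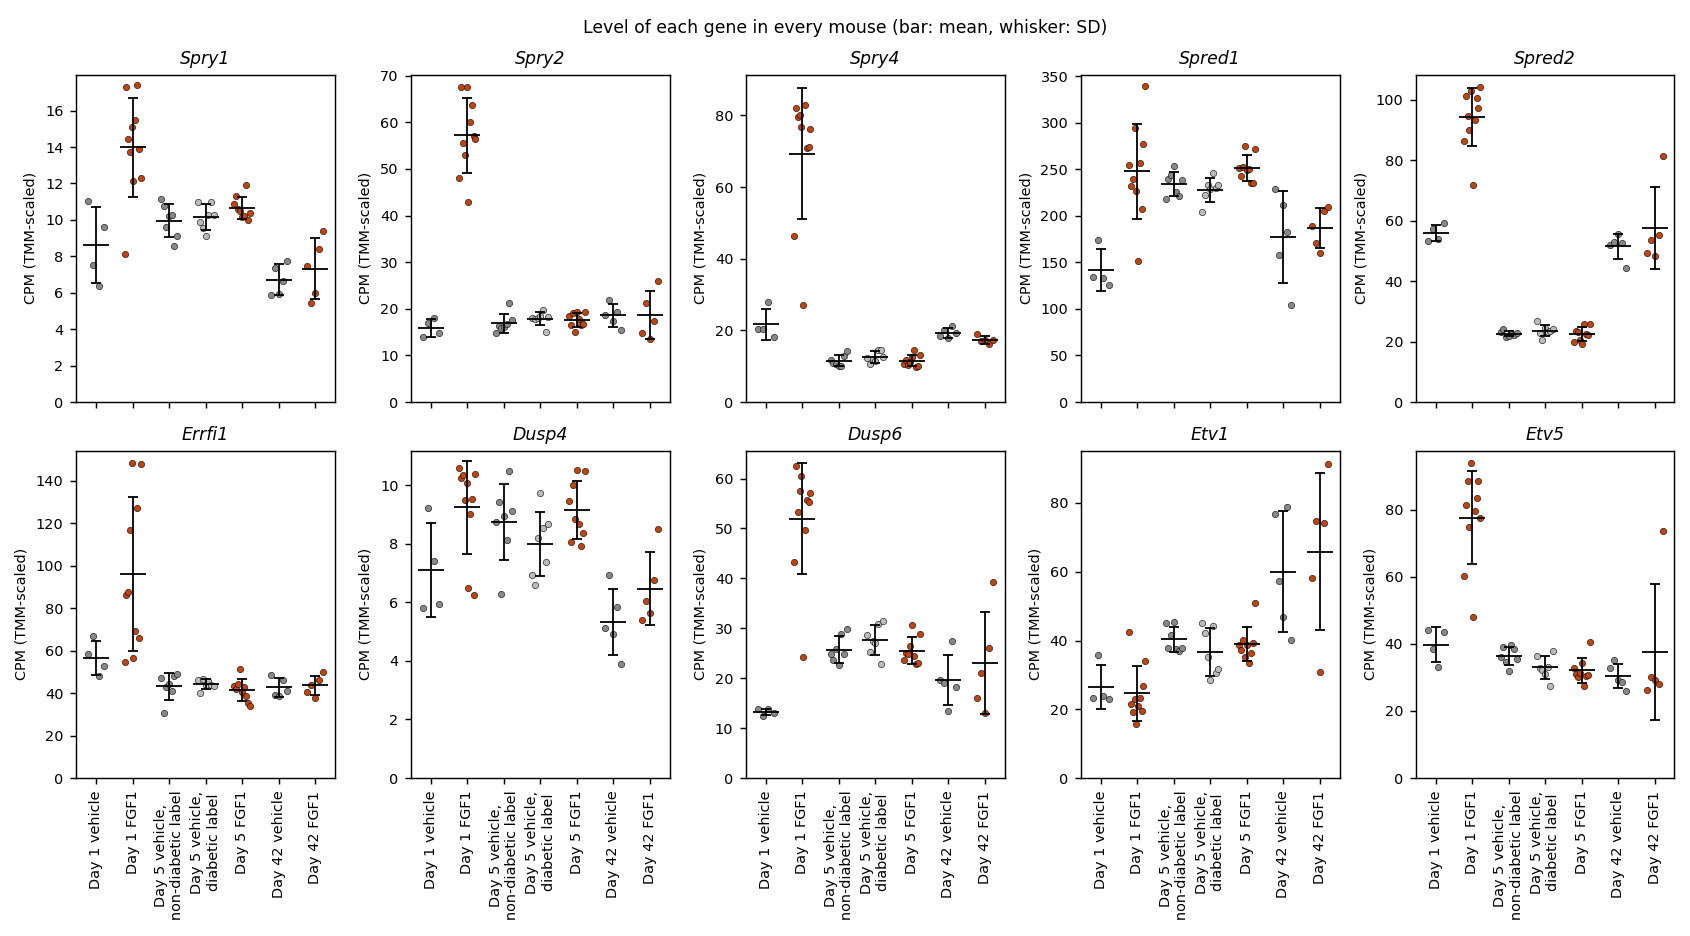
CPM of each gene in every mouse of the 7 groups on a linear axis that starts at 0, with FGF1 mice in orange, vehicle mice in grey, and the mean and SD as black bar and whisker. On Day 1 Spry2 lay between 42.9 and 67.5 CPM in FGF1 mice and between 13.9 and 18 CPM in vehicle mice, and on Days 5 and 42 the FGF1 and vehicle points of every gene overlap.

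Sprouty proteins are induced by receptor tyrosine kinases and dampen their signal to ERK. Spry2 was 13.9, 16.9, 18 and 14.9 CPM in the 4 vehicle mice of Day 1, and its lowest, median and highest values in FGF1 mice were 42.9, 56.8 and 67.5 CPM. The lowest FGF1 mouse was thus far above the highest vehicle mouse. The log2 FC of Spry2 was 1.85 ± 0.12 (SE; edgeR adjusted p = 7.04e-17), and in the exact permutation test over mice all 10 FGF1 mice stood above every vehicle mouse (p = 0.000999, the smallest that 1001 arrangements can give).

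Spry4 was 20.5, 20.3, 28 and 18.1 CPM in vehicle mice, with a lowest, median and highest value of 27, 76.6 and 82.8 CPM in FGF1 mice. Of the FGF1 mice 9 stood above every vehicle mouse, and only replicate 6 fell inside the vehicle range. Its log2 FC was 1.69 ± 0.16 (edgeR adjusted p = 5.79e-12; exact permutation p = 0.002). Spry1, the least abundant Sprouty gene here, was 11.0, 7.51, 6.38 and 9.60 CPM in vehicle mice and 8.15, 14.2 and 17.4 CPM as lowest, median and highest in FGF1 mice. The low value is that of the shallow library, and the other 9 FGF1 mice lay above all vehicle mice. Spry1 rose by a log2 FC of 0.74 ± 0.12 (edgeR adjusted p = 2.85e-06; exact permutation p = 0.005). After thinning all libraries to the lowest total its log2 FC was 0.39 (edgeR adjusted p = 0.283), and Spry1 no longer passed. On the opposite strand, Gm42922 shares 710 exon bases with Spry1. The library kit keeps strand, but whether counting used it is not given in the sources used here, so reads of both genes may not be separated in the Spry1 value.

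Spred proteins block the activation of RAF by RAS. Spred1 was 135, 174, 133 and 125 CPM in vehicle mice, and 151, 247 and 340 CPM as lowest, median and highest in FGF1 mice. The groups overlapped in 1 FGF1 mouse, replicate 6, and the other 9 were higher than all vehicle mice. Its log2 FC was 0.81 ± 0.13 (edgeR adjusted p = 2.19e-06). Spred2 was 53.4, 57.1, 54.0 and 59.2 CPM in vehicle mice and ran from 72.0 through a median of 96.1 to 104 CPM in FGF1 mice. There was no overlap between the groups, and the log2 FC was 0.76 ± 0.09 (edgeR adjusted p = 4.75e-09).

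Errfi1 encodes an inhibitor that binds the kinase domain of EGF receptor family members. It was 58.4, 66.7, 48.2 and 52.9 CPM in vehicle mice, and the lowest, median and highest FGF1 mice had 54.6, 87.0 and 148 CPM. FGF1 mice were widely spread, and 7 of 10 lay above every vehicle mouse. The log2 FC of Errfi1 was 0.79 ± 0.17 (edgeR adjusted p = 0.00018; exact permutation p = 0.038).

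Dusp6 encodes a phosphatase of the cytoplasm that removes the activating phosphates of ERK. It was 13.8, 12.5, 13.8 and 13.1 CPM in vehicle mice, while FGF1 mice ran from 24.3 through a median of 55.5 to 62.5 CPM. All 10 FGF1 mice were above all vehicle mice, with replicate 6 lowest. Its log2 FC of 1.97 ± 0.19 (edgeR adjusted p = 9.55e-12) was the highest of the 10 genes. Dusp4, a nuclear phosphatase of ERK and related kinases, was 5.80, 9.23, 7.40 and 5.94 CPM in vehicle mice and 6.24, 9.80 and 10.6 CPM as lowest, median and highest in FGF1 mice. The groups overlapped, and the log2 FC of 0.37 ± 0.14 had an edgeR adjusted p of 0.0309 but stayed under the fold change threshold. Without vehicle replicate 2, the highest of its group, Dusp4 reached 0.52 (edgeR adjusted p = 0.00659) and so passed.

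Etv5 and Etv1 are PEA3 subfamily ETS factors that are transcribed in response to FGF signals in many tissues. Etv5 was 44.1, 38.4, 33.2 and 43.5 CPM in vehicle mice and ran from 48.0 through a median of 80.5 to 93.8 CPM in FGF1 mice. Every FGF1 mouse was above every vehicle mouse, and the log2 FC was 0.98 ± 0.16 (edgeR adjusted p = 3.26e-06). Etv1 did not follow it. Its values were 23.3, 35.9, 23.8 and 22.9 CPM in vehicle mice and 15.7, 22.2 and 42.4 CPM as lowest, median and highest in FGF1 mice, and 5 of 10 FGF1 mice lay below every vehicle mouse and 1 above. The log2 FC of Etv1 was -0.17 ± 0.19 (edgeR adjusted p = 0.466; exact permutation p = 0.58). In 6 fits without 1 library the log2 FC of Etv1 ran from -0.24 to 0.005. Those left out each vehicle mouse in turn, and FGF1 replicates 1 and 6 in turn, but no other FGF1 mouse. The difference between Etv5 and Etv1 in response was not tested.

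Low values were not spread evenly over FGF1 mice of Day 1. Replicate 6 had the lowest level of its group in 6 of the 10 genes (Spry2, Spry4, Spred1, Spred2, Dusp6 and Etv5) at a total of 36080882 counts, so its depth was not low. In the same library the summed newly formed oligodendrocyte, oligodendrocyte precursor and choroid plexus markers were the highest of the group, at 76.0, 146 and 35.6 CPM. Their part in the result was not tested. Without this library, and without the shallow replicate 1, the number of genes past the thresholds was 8 each time.

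Levels of different genes can be set side by side per kilobase of exon (CPM per kb, exon union length). In vehicle mice of Day 1 the mean level in CPM per kb was highest for Spred1, 20.9 ± 3.25 (SD, n = 4), followed by Errfi1 with 15.8 ± 2.22 and Spred2 with 12.1 ± 0.594. The SDs of Spred1 and Errfi1 overlapped. Below them, in mean CPM per kb, lay Etv5 with 9.70 ± 1.24 and Spry2 with 7.63 ± 0.895, whose SDs also overlapped. The next means in CPM per kb were 4.57 ± 0.913 for Spry4 and 4.25 ± 0.197 for Dusp6, which did not differ beyond their spread. The lowest levels in CPM per kb, 2.97 ± 0.719 for Spry1, 2.59 ± 0.584 for Dusp4 and 1.99 ± 0.473 for Etv1, also had overlapping SDs from each to the next. In FGF1 mice of Day 1 Spry2 reached a mean level of 27.4 ± 3.82 CPM per kb (SD, n = 10), beside 26.8 ± 10.1 for Errfi1 and 36.6 ± 7.51 for Spred1.

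**Figure D2:**
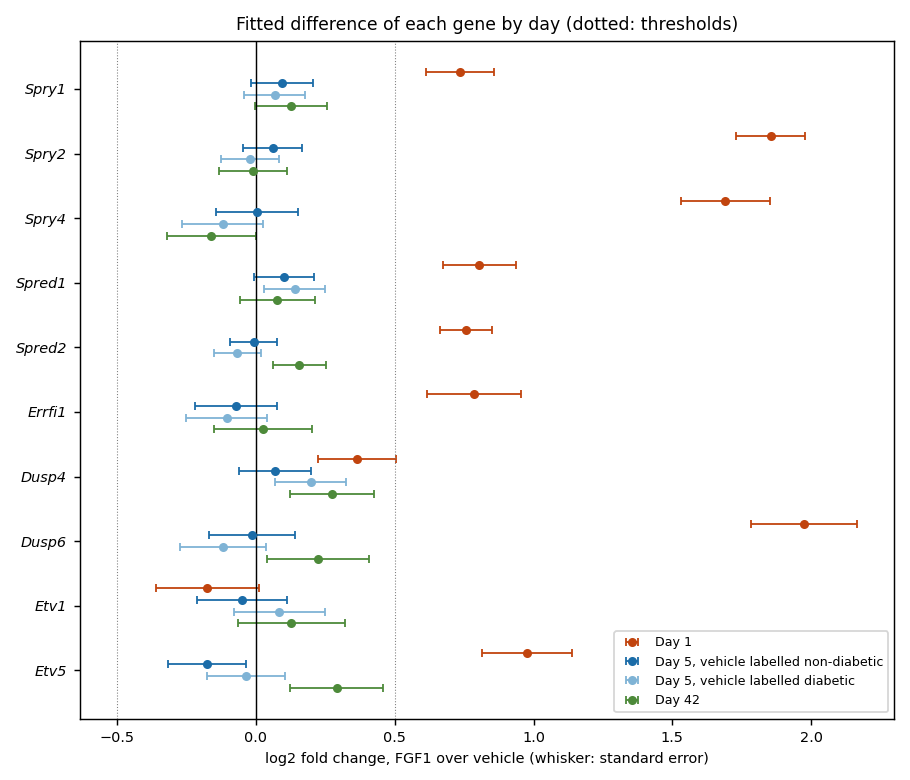
Log2 FC of FGF1 over vehicle for each gene, with its standard error as whisker, on Day 1, on Day 5 against each vehicle group, and on Day 42. Dotted lines mark 0.5 in either direction. The Day 1 points of 8 genes lie to the right of the threshold, and all points of Days 5 and 42 lie between both thresholds.

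On Day 5, 0 of the 10 genes passed against vehicle labelled non-diabetic, where 1.54% of all genes did, and 0 against vehicle labelled diabetic, where 2.85% did. The comparisons share the FGF1 mice. By edgeR 0 of the 10 genes had an unadjusted p under 0.05 in either comparison, as by DESeq2 and by limma after quantile normalisation. Of all genes 16.5% and 21.8% had such a p in edgeR, 16.0% and 21.3% in DESeq2 and 20% and 25.7% in the quantile fit, against non-diabetic and diabetic vehicle. Limma voom had 1 gene at an unadjusted p under 0.05 in each, Etv5 against non-diabetic and Spred1 against diabetic vehicle, beside 35.4% and 42.4% of all genes. That of Spred1 was also under 0.05 after adjustment over all genes, at a log2 FC of 0.11, and so 0 of the 10 genes passed both thresholds in any of these fits. No gene had groups without overlap, which 3.93% of all genes had against non-diabetic and 6.08% against diabetic vehicle. Log2 FCs ran from -0.18 for Etv5 to 0.10 for Spred1 against the former, and from -0.12 for Spry4 to 0.20 for Dusp4 against the latter. The vehicle groups themselves differed in 0 of 10 genes and in 0% of all genes past the thresholds, with 0 of the 10 genes at an unadjusted p under 0.05 by edgeR and 0 called by DESeq2.

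Among the Sprouty genes, Spry2 on Day 5 was 14.9, 17.8 and 19.3 CPM as lowest, median and highest in FGF1 mice, beside 14.8, 16.2 and 21.2 CPM in vehicle mice labelled non-diabetic and 15.1, 18 and 19.7 CPM in those labelled diabetic. The ranges lie on top of each other. Dusp6 was 22.9, 24.8 and 30.6 CPM in FGF1 mice and 22.6, 24.8 and 29.8 CPM in vehicle mice labelled non-diabetic. Spred1 was 235, 250 and 275 CPM in FGF1 mice, and 218, 239 and 254 CPM in vehicle mice labelled non-diabetic. FGF1 mice thus tended to the upper part of a shared range for Spred1, with an exact permutation p of 0.0263 that was not adjusted. Against vehicle labelled diabetic, which ran from 204 to 246 CPM, the exact permutation p of Spred1 was 0.00192 while edgeR gave a log2 FC of 0.14 ± 0.11 (adjusted p = 0.503). Dusp4 had an exact permutation p of 0.0449 there, not adjusted, with 3 of 9 FGF1 mice above every vehicle mouse. Etv5 was 27.5, 31.2 and 40.4 CPM in FGF1 mice beside 31.8, 36.0 and 39.6 CPM in vehicle mice labelled non-diabetic (exact permutation p = 0.0212, not adjusted), and 6 of 9 FGF1 mice lay below all of these vehicle mice. Against vehicle labelled diabetic 0 of 9 did so for Etv5 (exact permutation p = 0.615).

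On Day 42 0 of the 10 genes passed and 0% of all genes did. By edgeR 0 of the 10 had an unadjusted p under 0.05, as by DESeq2 and by both limma fits, beside 5.46% of all genes in edgeR. Groups without overlap were seen in 0 of the 10 genes and in 0.267% of all genes. Spry2 was 14.8, 21.3, 13.4, 17.4 and 26.0 CPM in FGF1 mice 1 to 5, and 18.6, 22, 17.4, 19.4 and 15.5 CPM in the vehicle mice. Dusp6 was 16.1, 21, 13, 26.0 and 39.2 CPM in FGF1 mice and 19.7, 19.1, 13.5, 27.4 and 18.2 CPM in vehicle mice. Both genes overlapped between groups, and the highest FGF1 mouse was the same in each, replicate 5. Spry4 had 18.9, 17.0, 17.2, 16.2 and 17.4 CPM in FGF1 mice and 18.3, 20, 17.9, 21.4 and 19.3 CPM in vehicle mice. FGF1 mice tended to be lower for Spry4 (log2 FC -0.16 ± 0.16, edgeR adjusted p = 1; exact permutation p = 0.0317, not adjusted), with 4 of 5 below all vehicle mice.

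Replicate 5 of the FGF1 mice of Day 42 had the highest level of its group in 9 of the 10 genes, all but Spry4. Its Etv5 was 73.6 CPM beside 26.2, 30.2, 29.3 and 28 CPM in the other FGF1 mice, and its Spred2 81.3 CPM beside 49.3, 53.6, 48.4 and 55.2 CPM. In this mouse the summed choroid plexus markers were 163 CPM, the highest of the group, whose median was 28.4 CPM, and the summed hypothalamic neuron markers were 494 CPM, the lowest of a group with a median of 977 CPM. Its summed general neuron markers (Snap25 most abundant) and astrocyte markers were the highest of the group, at 5013 and 5332 CPM beside medians of 4039 and 5006 CPM. So were its microglia and tanycyte sums, at 173 and 185 CPM beside medians of 150 and 156 CPM. Its pituitary and blood sums were the lowest of the group. The library held 19454764 counts. The part of these markers and of depth in the levels of the 10 genes was not tested. Without this mouse the log2 FC of Etv5 moved from 0.29 to -0.10 and that of Dusp6 from 0.22 to -0.05, and 0 of the 10 genes passed.

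The FGF1 effect of Day 5, taken against vehicle labelled non-diabetic, was lower than that of Day 1 in 8 of the 10 genes past the thresholds, beside 8.52% of all genes. These are the same 8 genes that rose on Day 1. The difference of log2 FCs was -1.99 ± 0.24 for Dusp6, -1.79 ± 0.16 for Spry2 and -1.68 ± 0.21 for Spry4, with edgeR adjusted p = 8.71e-09, 1.95e-12 and 2.72e-08. For Etv5 it was -1.15 ± 0.21 and for Spry1 -0.64 ± 0.16, which no longer passed with quantile normalisation (-0.48) or after thinning (-0.45). Day 42 against Day 1 gave 8 of 10 genes lower, beside 9.81% of all genes, with -1.86 ± 0.17 for Spry2 and -0.68 ± 0.23 for Etv5 (edgeR adjusted p = 0.0235). This count was 4 after thinning, 6 with quantile normalisation and 6 without vehicle replicate 3 of Day 1, and Etv5 lost its call when any of 3 single libraries was left out. Over the 16 fits without 1 library that were run, the difference of Etv5 ran from -1.07 to -0.58. Of the FGF1 mice of Day 1, only replicates 1 and 6 were left out in these. Between Days 5 and 42 0 of the 10 genes passed, where 0.717% of all genes did, and DESeq2 called 0. In edgeR 1 gene (Etv5, log2 difference 0.47 ± 0.22) had an unadjusted p under 0.05, beside 9.98% of all genes. In fits without 1 library of Day 42 this difference of Etv5 ran from 0.08 to 0.57. These differences share mice, so they are not independent of one another. Each day has its own preparation code, so a change of the FGF1 effect with day cannot be told apart from a change with preparation.

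Vehicle levels of some of the genes differed by day, and those of others did not differ beyond their spread. Spred2 had a mean of 55.9 ± 2.74 CPM (SD, n = 4) in vehicle mice of Day 1, 22.7 ± 0.915 CPM (n = 7) in those labelled non-diabetic on Day 5 and 51.5 ± 4.20 CPM (n = 5) on Day 42. Etv1 in the same groups was 26.5 ± 6.29, 40.4 ± 3.67 and 60.1 ± 17.5 CPM. Dusp6 was 13.3 ± 0.617, 25.7 ± 2.64 and 19.6 ± 5.01 CPM. Spry2, at 15.9 ± 1.87, 16.9 ± 2.06 and 18.6 ± 2.41 CPM, had overlapping SDs on all days. Since each day has a preparation code of its own, these levels are a description.

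The other genes of the pathway were read from lists by role. On Day 1, 7 of 16 other Sprouty, Spred and ETS genes in the table passed and were higher, and 0 were lower, where 11.5% of all genes were higher and 8.05% lower. Etv4, another PEA3 factor, had a log2 FC of 1.69 ± 0.16 (edgeR adjusted p = 5.93e-12), and Spred3 1.05 ± 0.10, Etv6 0.99 ± 0.12, Elk3 0.96 ± 0.13, Erf 0.95 ± 0.20, Ets1 0.80 ± 0.11 and Spry3 0.55 ± 0.16 on the same log2 scale. Of the other MAP kinase phosphatases 2 of 6 were higher and 0 lower. These were Dusp5, a nuclear ERK phosphatase, with a mean level of 22.2 ± 7.79 CPM in FGF1 mice and 2.27 ± 0.650 CPM in vehicle mice (log2 FC 3.31 ± 0.29), and Dusp7 (log2 FC 0.63 ± 0.12). The list medians of log2 FC were 0.41 and 0.39, beside 0.01 over all genes.

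Of the other ERK output genes 12 of 15 were higher and 0 lower on Day 1, beside 11.5% and 8.05% of all genes, with a median log2 FC of 2.08. Fosl1, an AP-1 subunit, was 10.3 ± 4.65 CPM in FGF1 mice and 0.449 ± 0.235 CPM in vehicle mice, a log2 FC of 4.54 ± 0.36. Trib1 (log2 FC 2.90 ± 0.19), the EGF receptor ligand gene Hbegf (2.88 ± 0.14) and the ephrin receptor gene Epha2 (2.46 ± 0.23) followed. Ier2 (2.44 ± 0.36), the transcription factor gene Egr1 (2.37 ± 0.33), Myc (2.18 ± 0.20) and the cyclin gene Ccnd1 (2.08 ± 0.10) were also higher. Il17rd, an inhibitor of FGF signalling, Epha4 and Bcl2l11 did not pass, with log2 FCs of -0.05, -0.20 and -0.45.

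**Figure D3:**
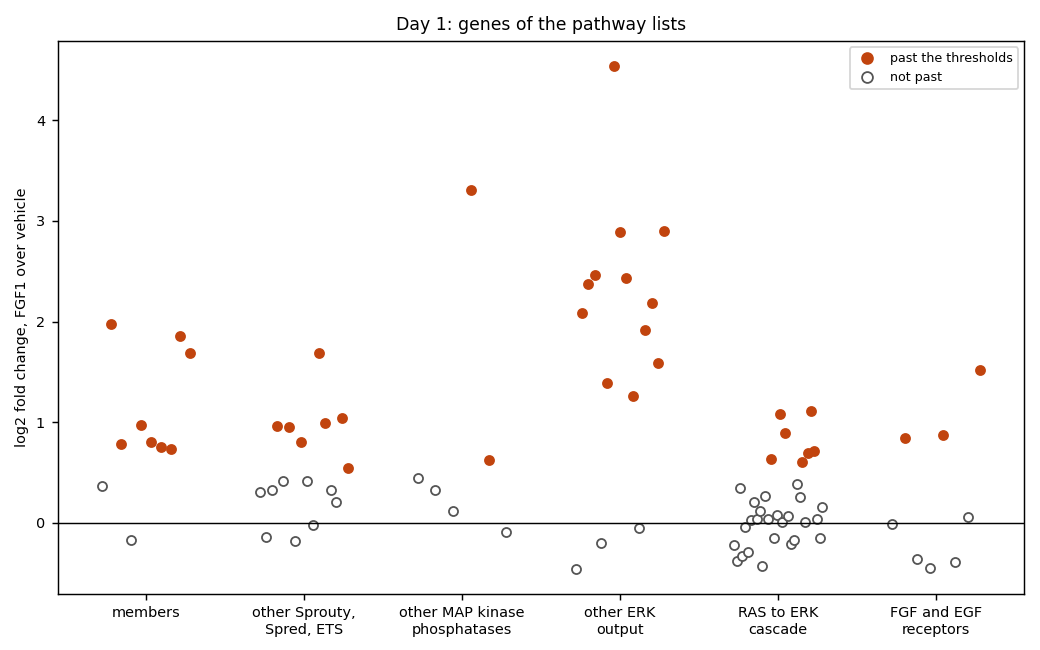
Log2 FC of FGF1 over vehicle on Day 1 for the 10 genes and for each other list of pathway genes, with genes past the thresholds filled in orange and the rest open. Fosl1, at 4.54, is the highest point, and no filled point lies below 0.

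Components of the cascade itself, from RAS to ERK, passed in 7 of 32 cases on Day 1, all higher, beside the 11.5% of all genes that were higher. They were the RAS family genes Rras (log2 FC 1.11 ± 0.13), Mras (1.08 ± 0.09) and Nras (0.89 ± 0.09), the adaptor gene Shc1 (0.71 ± 0.11), the ERK-activated kinase genes Rps6ka3 (0.69 ± 0.13) and Rps6ka1 (0.60 ± 0.15), and Map2k2 (0.64 ± 0.18), which encodes a MEK. The median of that list was 0.05. Among FGF and EGF receptor genes 3 of 8 were higher and 0 lower, namely Fgfrl1 (1.52 ± 0.16), Fgfr1 (0.87 ± 0.11) and Erbb2 (0.84 ± 0.18). On Day 5 1 of the 77 genes of all these lists passed against each vehicle group, beside 1.54% and 2.85% of all genes. It was Erbb3, against vehicle labelled non-diabetic with a log2 FC of 0.71 ± 0.16 (edgeR adjusted p = 0.00335), and against vehicle labelled diabetic with 0.54 ± 0.16. On Day 42 0 of the 77 genes of these lists passed in edgeR and 0 in DESeq2, with 6 and 5 at an unadjusted p under 0.05, as had 5.46% and 5.49% of all genes.

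Cell type markers moved on Day 1 beside the 10 genes, and not all marker lists are given here. Lists left out also held markers past the thresholds. Over all genes 11.5% were higher and 8.05% lower. The 6 microglia markers summed to 121, 110, 117 and 139 CPM in vehicle mice and to 143, 172 and 209 CPM as lowest, median and highest in FGF1 mice, with Csf1r most abundant, and 5 of 6 were higher past the thresholds and 1 lower. The 8 astrocyte markers, with Slc1a2 most abundant, summed to 4453 to 5039 CPM in vehicle mice and 3200 to 3871 CPM in FGF1 mice, and 3 of 8 were lower past the thresholds. The 6 ependymal markers, with Foxj1 most abundant over all mice, summed to 64.4 to 89.3 CPM in vehicle mice and 36.5 to 61.4 CPM in FGF1 mice, with 3 of 6 lower, and of the tanycyte list 7 of 8 were measured and 1 was lower. Newly formed oligodendrocyte markers, with Gpr17 most abundant, summed to 56.7 to 88.6 CPM in vehicle mice and 29.7 to 76.0 CPM in FGF1 mice, with 2 of 4 lower. The choroid plexus sum, mostly Clic6, was 41.0 to 52.5 CPM and 18.5 to 35.6 CPM in the same order, with 1 of 2 lower. FGF1 mice spread widely in the 5 meningeal fibroblast markers, with Dcn most abundant, at 50.5 to 341 CPM beside 72.2 to 132 CPM in vehicle mice, and 2 were higher and 1 lower. The general neuron markers, with Snap25 most abundant, summed to 2073 to 2797 CPM in FGF1 mice and 3029 to 3826 CPM in vehicle mice, at a median log2 FC of -0.31. Of these 4 markers 0 passed in edgeR, where 3 had an unadjusted p under 0.05, and 2 passed in DESeq2. Hypothalamic neuron markers, mostly Pmch, summed to 803 to 1213 CPM in FGF1 mice and 1210 to 1540 CPM in vehicle mice. Of these 9 markers 1 was higher and 1 lower past the thresholds. No measured marker of these lists was at 0 in all mice of a group. The part of any of these in the levels of the 10 genes was not tested.

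The genes most like the 10 were found by the Pearson correlation of their log2(CPM + 0.5), centred by day, with the mean z score of the 10 genes. Over 47 libraries and 14113 genes with a mean of at least 1 CPM, the highest values were 0.922 for Arpc2, 0.905 for Eif4a1, 0.902 for Stt3b, 0.899 for Inka2 and 0.891 for Smad3. The libraries share days and groups, so this is a description. Over the 33 libraries of Days 5 and 42 alone the same genes gave 0.799, 0.501, 0.656, 0.702 and 0.511. Between pairs of the 10 genes, r had a median of 0.583 over the 45 pairs, from -0.218 to 0.923, and of 0.256 over Days 5 and 42 alone.

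RefSeq promoters (build GRCm38.p6, 300 bases each) were used for 8 of the 10 genes, in 11 windows. No window of Spry4, which rose on Day 1, or of Dusp4 was part of the search. The motif counts below therefore say nothing on Spry4 or Dusp4. The windows include those of Etv1, which did not rise, so these are not the same 8 genes. Since 8 genes rose together on Day 1, the windows were searched on both strands for 3 motifs of transcription factors that act downstream of growth factor kinases, chosen after the values were seen. These were the ETS motif CCGGAAGT, the AP-1 motif TGANTCA and the cyclic AMP response motif TGACGTCA. Of all 32851 promoters of 300 bases, 3.89%, 7.81% and 1.79% held them. The ETS and AP-1 letters were found in 0 of the 11 windows, and TGACGTCA in 1, a window of Errfi1. That window and those of Spry2 and Dusp6, the genes with the highest log2 FCs, are shown 5′ to 3′ with a match in capitals, and a match is a description only. They are chr4:150854820-150855119 on the plus strand for Errfi1, chr14:105896770-105897069 on the minus strand for Spry2 and chr10:99262981-99263280 on the plus strand for Dusp6.
Errfi1: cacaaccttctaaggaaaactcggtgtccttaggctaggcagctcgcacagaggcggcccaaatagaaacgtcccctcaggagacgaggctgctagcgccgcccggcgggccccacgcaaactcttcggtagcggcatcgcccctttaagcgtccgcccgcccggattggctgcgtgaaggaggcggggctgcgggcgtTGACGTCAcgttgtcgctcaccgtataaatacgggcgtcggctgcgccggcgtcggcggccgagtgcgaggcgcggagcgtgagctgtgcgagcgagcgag
Spry2: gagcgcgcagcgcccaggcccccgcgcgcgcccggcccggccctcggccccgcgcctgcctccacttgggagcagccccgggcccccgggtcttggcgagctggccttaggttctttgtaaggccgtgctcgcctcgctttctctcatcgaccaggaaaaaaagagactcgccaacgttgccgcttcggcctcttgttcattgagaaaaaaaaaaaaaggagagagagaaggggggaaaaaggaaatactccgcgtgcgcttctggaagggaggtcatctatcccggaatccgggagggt
Dusp6: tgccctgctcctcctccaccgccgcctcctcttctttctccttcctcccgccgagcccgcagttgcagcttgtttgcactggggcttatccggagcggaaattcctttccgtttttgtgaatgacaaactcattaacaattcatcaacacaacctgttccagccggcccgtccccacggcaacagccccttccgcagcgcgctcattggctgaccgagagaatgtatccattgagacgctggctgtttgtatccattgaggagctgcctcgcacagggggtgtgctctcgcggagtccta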

How the data were processed

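Per the labels, mRNA libraries of single mice were made with a strand-keeping kit, and the authors deposited a table of raw counts per gene. The submitters' processing notes name STAR and DESeq2; the program that counted reads, and its use of strand, are not given in the sources used here. The build is named GRCh38 there although the samples are from mouse, so GENCODE vM21 and RefSeq (GRCm38) were joined by gene symbol only, for positions, exon lengths and promoters. The table names 14221 genes, each with at least 307 counts over all 47 libraries. The sample table gives preparation and group as text.

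Counts were fitted with edgeR 4.0.16 in R 4.3.3 (TMM, quasi-likelihood F test, 1 mean for each of 7 groups), and standard errors are the log2 FC over the square root of F. The fit was tested on simulated counts. Exact permutation tests are two-sided, on log2(CPM + 0.5), for 10 genes in 5 comparisons; their p-values are given unadjusted although adjustment over those tests had been planned, since the genes were chosen with earlier results known. Named genes were the 10, up to 8 passing genes per list and FGF1 comparison with the largest absolute log2 FC, and the 5 most alike. The genes and lists were chosen with earlier results of these data known. Alternatives used DESeq2 1.42.0, limma 3.58.1, other filters, controls, depths and left-out libraries. No pair of libraries of a group agreed within sampling noise (lowest chi-square per degree of freedom 1.66).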

Additional observations from a re-analysis of the deposited data

Results flagged for a closer look

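Of 70 groups (10 genes in 7 groups) 11 held a mouse far from the rest of its group, where chance flags about 1 in 20. The value given is the gap of log2(CPM + 0.5) to the nearest mouse over the range of the group. In FGF1 mice of Day 1, replicate 6 was low for Dusp6 (0.607, at 24.3 CPM), Spred2 (0.493, at 72.0 CPM) and Spry4 (0.483, at 27 CPM), and replicate 1 was low for Spry1 (0.522, at 8.15 CPM). In FGF1 mice of Day 42, replicate 5 was high for Etv5 (0.864) and Spred2 (0.745). Vehicle replicate 5 of that day was low for Spred2 (0.714), and vehicle replicate 2 of Day 1 was high for Etv1 (0.918). On Day 5 the distant mice were FGF1 replicate 9 for Etv1 (0.565), vehicle labelled diabetic replicate 6 for Spry2 (0.617) and vehicle labelled non-diabetic replicate 2 for Errfi1 (0.622).

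The FGF1 effect differed between days, by the test of the difference, in 8 genes for each of 2 pairs of days. Day and preparation cannot be told apart in this test. For Day 5 minus Day 1 the log2 difference was -1.99 for Dusp6, -1.79 for Spry2, -1.68 for Spry4, -1.15 for Etv5, -0.86 for Errfi1, -0.76 for Spred2, -0.70 for Spred1 and -0.64 for Spry1. For Day 42 minus Day 1 it was -1.86 for Spry2, -1.85 for Spry4, -1.75 for Dusp6, -0.76 for Errfi1, -0.73 for Spred1, -0.68 for Etv5, -0.61 for Spry1 and -0.60 for Spred2.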

How the results depend on the processing

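No paired analysis was possible because replicate numbers only name mice. On Day 1 8 genes stayed higher past the thresholds, except that limma voom with sample weights, adjusted p alone and the fit without vehicle replicate 2 added Dusp4, and thinning to the lowest depth lost Spry1 (log2 FC 0.39). On Days 5 and 42 and between them 0 of the 10 genes passed under any alternative. The genes higher on Day 1 numbered 1035 with at least 10 counts in every library, 3322 by adjusted p alone and 1074 after thinning, and the lower genes 547, 3074 and 707. Genes past the thresholds on Day 5 against vehicle labelled non-diabetic were 408 with limma after quantile normalisation, 438 with limma voom, 140 with the stricter filter, 370 with that day's libraries alone, 661 by adjusted p alone, 373 with both vehicle groups and 129 after thinning, and against vehicle labelled diabetic 640 with quantile normalisation, 219 with the stricter filter, 1310 by adjusted p alone and 185 after thinning. For Day 5 minus Day 1 the lower genes were 793 with the stricter filter, 2014 by adjusted p alone and 557 after thinning, and Spry1 was lost with quantile normalisation (-0.48) and thinning (-0.45). For Day 42 minus Day 5 the count was 27 after thinning and 65 without the 2 deepest FGF1 libraries of Day 5, an alternative chosen after seeing the data, as was leaving out FGF1 replicate 6 of Day 1. For Day 42 minus Day 1 the lower genes were 910 with quantile normalisation and 481 after thinning, where 4 of the 10 genes passed. Thinning ended the calls of Spry1 (-0.04), Spred2 (-0.66), Etv5 (-0.77) and Errfi1 (-0.68), and quantile normalisation those of Spry1 (-0.43) and Errfi1 (-0.64). The cause was not tested. Libraries left out singly were those of Day 42, the vehicle mice of Day 1, and FGF1 replicates 1 and 6 of Day 1. Leaving out 1 library gave 0 to 31 genes on Day 42 (31 without FGF1 replicate 1, 1 without FGF1 replicate 2), 56 to 149 for Day 42 minus Day 5 (56 without FGF1 replicate 5), and 6 to 8 of the 10 genes for Day 42 minus Day 1. There Etv5 lost its call without FGF1 replicate 1 (-0.58), FGF1 replicate 4 (-0.60) or vehicle replicate 3 of Day 1 (-0.61), and Spry1 without that vehicle (-0.49). Higher calls made up 84.9% on Day 5 against vehicle labelled non-diabetic and 66.4% with quantile normalisation, 82.5% and 65.2% against vehicle labelled diabetic, and with the size factors of DESeq2 went from 40.2% to 50.5% for Day 42 minus Day 1, 46.1% to 52.5% for Day 5 minus Day 1 and 58.8% to 50.8% on Day 1. Counts of higher, lower or all genes that the text does not give were left out of this listing after they had been seen, and 50 of their 237 alternatives had moved. In the shallow library Spry1 and Dusp4 rest on 10 and 13 counts, and thinning to its depth limits the calls as given above.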
